A study of Mus musculus with 6 samples.

Results

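The genes described here are 7 epithelial or mucosal defence genes of the mouse colon, Lyz1, Lyz2, Ang4, Pla2g2a, Itln1, Lypd8 and Pigr. They were chosen by name, and each was represented by the row of the deposited value table with the highest mean among rows annotated to that symbol alone. All 7 had such a row, and each had 1 row, so they are 7 of 19938 genes tested. RNA of whole colon was hybridised to Affymetrix Mouse Gene 1.0 ST arrays for 3 VilCre;Ihhflox/flox mice (mutant) and 3 littermates labelled control or wild type, with a separate array for each animal. In the mutants the floxed Ihh gene, which encodes the secreted signal Indian hedgehog, is removed by a Cre recombinase that the villin promoter drives in the epithelium of the gut, so other cell types keep the gene. Mutant and control of the same number came from the same litter. The series text places the harvest at postnatal day 12, whereas the growth protocol gives postnatal days 9 to 12 for the animals. The labels give neither the strain and sex of the mice nor whether the controls carried Cre.

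These genes encode proteins that keep gut bacteria away from the epithelium by different routes. Lysozymes cut the peptidoglycan of bacterial walls, angiogenin 4 is a ribonuclease with bactericidal activity, and secreted phospholipase A2 breaks bacterial membrane lipids. Intelectin 1 is a lectin that binds microbial sugars, Lypd8 is a glycosylated surface protein of the colon that binds flagellated bacteria, and the polymeric immunoglobulin receptor Pigr carries IgA and IgM through epithelial cells into the lumen. In the mouse, Lyz1, Pla2g2a and Ang4 are best known from Paneth cells of the small intestine, and Ang4 and Itln1 are also made by goblet cells. Lyz2 is the lysozyme of macrophages and other myeloid cells, so its signal in whole colon need not come from epithelium.

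Promoter sequences of RefSeq (build GRCm38.p6) were found for 6 of the 7 genes, all but Pla2g2a. Those of Lyz1, Lyz2 and Pigr are shown, the first pair because these neighbouring paralogs varied alike between litters and Pigr because it was the member that passed the test. Each line gives the 250 bases before the annotated start, 5′ to 3′. The windows are chr10:117292869-117293118 for Lyz1 and chr10:117282273-117282522 for Lyz2, both on the minus strand, and chr1:130826434-130826683 for Pigr on the plus strand. Capitals mark the ETS-type motif CAGGAAGT, read on either strand, in the lysozyme genes and the E-box CACGTG in Pigr.
Lyz1: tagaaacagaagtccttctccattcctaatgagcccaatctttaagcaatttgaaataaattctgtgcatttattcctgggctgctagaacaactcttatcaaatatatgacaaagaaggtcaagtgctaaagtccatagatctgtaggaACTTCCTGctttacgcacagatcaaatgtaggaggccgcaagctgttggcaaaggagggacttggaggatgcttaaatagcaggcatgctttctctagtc
Lyz2: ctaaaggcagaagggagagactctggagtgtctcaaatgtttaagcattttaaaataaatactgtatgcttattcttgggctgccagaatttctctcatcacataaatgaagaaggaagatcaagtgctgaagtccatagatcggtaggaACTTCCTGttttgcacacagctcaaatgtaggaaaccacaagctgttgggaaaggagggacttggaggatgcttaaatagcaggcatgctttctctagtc
Pigr: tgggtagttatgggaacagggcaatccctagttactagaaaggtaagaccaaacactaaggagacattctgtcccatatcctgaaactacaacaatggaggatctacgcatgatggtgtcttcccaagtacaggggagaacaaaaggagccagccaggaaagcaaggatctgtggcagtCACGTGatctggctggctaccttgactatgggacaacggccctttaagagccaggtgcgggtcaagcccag

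In a global alignment with gaps, the windows of Lyz1 and Lyz2 were identical at 200 of the 250 bases of a window (80.0%). The 50 bases next to the start were the same in both genes. Other pairs of the 6 windows matched at 46.4 to 53.2% of the window length. Gaps are placed to raise the number of matches, and no level for unrelated sequences was computed, so these shares do not show likeness. The ETS-type motif lay 100 to 93 bases before the start in both lysozyme genes, and 210 to 203 bases before it in Ang4, on the opposite strand. It occurs in 2.7% of 32536 RefSeq promoter windows of the same length. The E-box lay 71 to 66 bases before the Pigr start and occurs in 6.04% of windows. The STAT-type motif TTCNNNGAA was found in Ang4, 192 to 184 bases before the start, and in 7.04% of windows. The GLI motif GACCACCCA (0.218% of windows) and TATAAA (12.3% of windows) were in 0 of the 6 genes. All motifs were searched on both strands, no matches overlapped, and a match is a description of the sequence.

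Hedgehog target genes were lower in the mutants. All values are log2 expression made with RMA, and each change is mutant minus control with its standard error from a limma fit that holds the litter as a block. Ptch1, the hedgehog receptor and a target of the pathway, changed by -1.44 ± 0.09 (limma adjusted p = 0.000493), and Hhip, a hedgehog-binding inhibitor, by -2.16 ± 0.13 (limma adjusted p = 0.000493). The Ihh row itself stood at -0.30 ± 0.09 and did not pass (limma adjusted p = 0.139). A gene passed when its p, adjusted by Benjamini-Hochberg over all 19938 genes, was under 0.05. Over all genes 751 passed (3.77%), of which 330 (1.66%) were higher and 421 (2.11%) were lower in mutants. General epithelium markers summed to 15.36 to 15.41 in mutants and 15.24 to 15.39 in controls, as log2 of the summed linear signal. Absorptive colonocyte markers summed to 14.91 to 15.14 in mutants and 15.04 to 15.14 in controls, with 2 of 15 higher and 3 lower. Smooth muscle markers summed to 14.95 to 15.29 in mutants and 15.48 to 15.56 in controls, with 0 of 10 higher and 6 lower. Neutrophil markers, of which 9 of 16 passed as higher, summed to 11.76 to 11.97 in mutants and 10.28 to 10.64 in controls. Of these 16, 11 were among the dimmest 30% of genes, so the sum weighs the few brighter rows most. In each litter mutant and control differed in Xist, the transcript of the inactive X chromosome, by -5.54, 6.07 and 6.09 in litters 1, 2 and 3, so no litter had a pair matched for sex.

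Of the 7 defence genes, 1 passed in limma, as higher in mutants, beside 1.66% of all genes, and 0 passed as lower, beside 2.11%. At an unadjusted p under 0.05, 2 of the 7 were higher and 0 lower. The gene that passed was Pigr, and the other 6 did not pass. The median change over the 7 was 0.24, and it was 0.01 over all genes tested. By litter the median of the 7 was -0.01, 0.24 and 0.41 in litters 1, 2 and 3, so litter 1 showed no rise. Mutant and control arrays did not overlap for 2 of the 7 genes, against 19.8% of all genes. These were Pigr and Lypd8. Pigr was higher in mutants without overlap, as were 10% of all genes tested, and Lypd8 was lower without overlap, as were 9.78%. In 4 of the 7 the change had the same sign in all 3 litters, against 35.9% of all genes. No test was made over the group, whose members were picked with earlier results known.

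**Figure D1:**
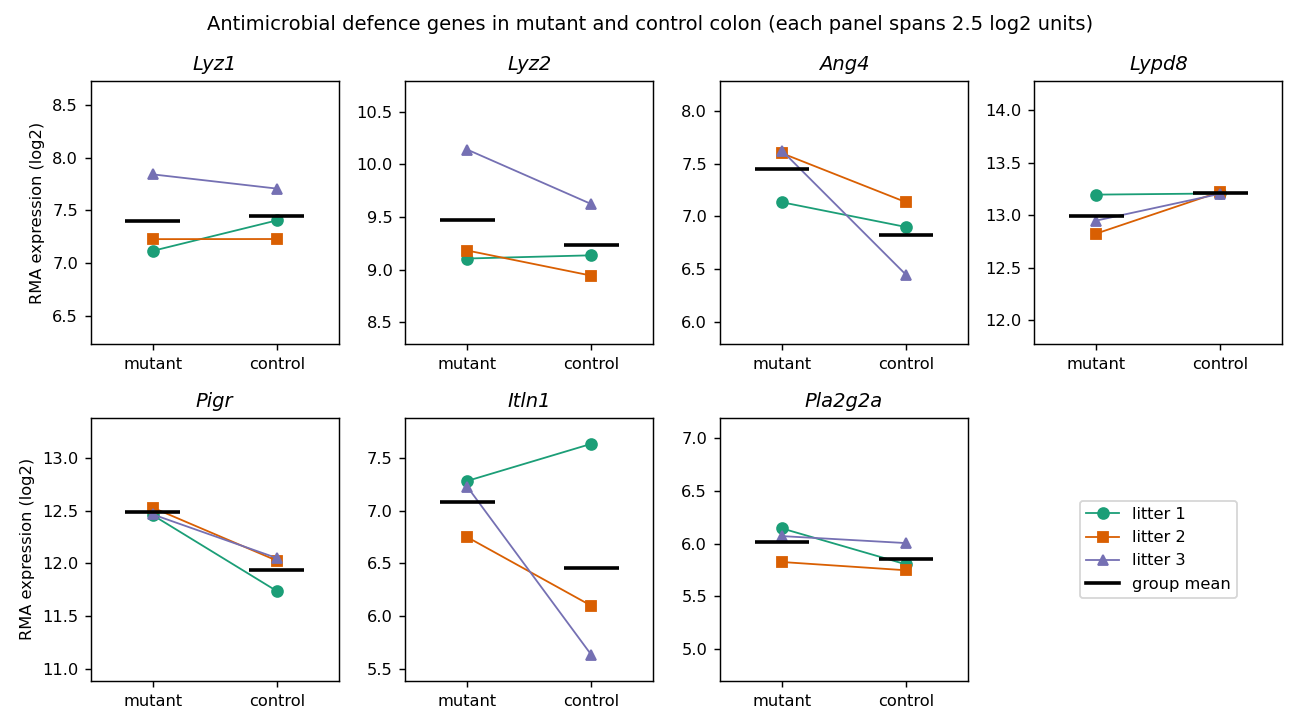
RMA expression (log2, vertical axis) of the 7 genes in mutant and control colon, with a line joining littermates and a black bar at each group mean. The 3 mutants sit between 12.46 and 12.53 for Pigr, above the controls, while litter 3 is the highest pair for both lysozyme genes.

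Pigr, which moves polymeric immunoglobulin across the epithelium, was higher in mutant colon. It measured 12.46, 12.53 and 12.47 in mutants 1 to 3, against 11.74, 12.03 and 12.05 in controls 1 to 3. Every mutant lay above every control, and the 3 mutants spanned 0.07 while the 3 controls spanned 0.31. The change was 0.55 ± 0.09 (limma adjusted p = 0.0196), a 1.46-fold higher signal, with a 95% interval from 0.34 to 0.76 on the log2 scale. It was higher in 3 of 3 litters, by 0.72, 0.50 and 0.41 in litters 1, 2 and 3. Litter 1 had the largest change, and control 1 the lowest Pigr value of the 6 arrays. The call held with each litter left out in turn, with limma adjusted p from 0.0153 to 0.0411. Such fits keep few residual degrees of freedom, so their p-values lean on the variance shared over genes. Without litter 1 (limma adjusted p = 0.0411) the remaining mutants had the higher Xist level, so that fit cannot tell genotype from sex. The Pigr call was lost when all 35557 rows of the table shared the variance estimate (limma adjusted p = 0.169) and in a paired test without that shared variance (adjusted p = 0.475). With the Xist level as a covariate the change was 0.60 (limma adjusted p = 0.0103). In whole tissue, more epithelial cells and more Pigr RNA per epithelial cell cannot be told apart. The median change of the 14 general epithelium markers was 0.07 and that of the 10 smooth muscle markers was -0.53. The part of these tissues in the Pigr change was not tested.

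Pigr was the only gene of its transport list that passed. Of 12 measured genes of polymeric immunoglobulin transport and plasma cells, 1 passed as higher, which was Pigr itself, and 0 as lower. Over all genes these shares were 1.66% and 2.11%. At an unadjusted limma p under 0.05, 1 was higher and 1 lower, and the median change was -0.03. Jchain, which links IgA and IgM into the polymers that Pigr binds, measured 4.43, 4.26 and 4.23 in mutants and 4.30, 4.43 and 4.75 in controls. The groups overlapped, the row was among the dimmest 30% of genes, and the change of -0.19 ± 0.12 did not pass (limma adjusted p = 0.580). Xbp1, a transcription factor of secretory cells, stood at 0.14 ± 0.08 and Sdc1, a plasma cell surface marker that epithelium shares, at 0.00 ± 0.08, neither of which passed.

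The genes whose values ran most like those of Pigr over the 6 arrays were Kcnq1, Slc12a2 and Pmm2, with Pearson correlations of 0.997, 0.996 and 0.995 among 3748 genes that spanned 0.5 or more. These correlations describe 6 arrays that share the genotype contrast. Kcnq1, a potassium channel of epithelial basolateral membranes, changed by 0.49 ± 0.08 (limma adjusted p = 0.0209). Slc12a2, the basolateral sodium-potassium-chloride cotransporter, changed by 0.68 ± 0.09 (limma adjusted p = 0.00670). Pmm2, an enzyme of the sugar-donor supply for protein glycosylation, changed by 0.48 ± 0.09 (limma adjusted p = 0.0314, and 0.0630 without litter 1 and 0.0543 without litter 3).

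Ang4, the bactericidal ribonuclease, had the next highest share of its spread between genotypes but did not pass. It measured 7.14, 7.60 and 7.63 in mutants 1 to 3, against 6.90, 7.14 and 6.45 in controls 1 to 3. Mutant 1 and control 2 met at 7.14, so the groups touched, although each mutant exceeded its own littermate. The differences were 0.23, 0.46 and 1.18 in litters 1, 2 and 3, with a mean of 0.63 ± 0.16 (limma adjusted p = 0.0901) and a 95% interval, not adjusted for the number of genes, from 0.25 to 1.00. The value leaned on litter 3, where control 3 was the lowest array. Without litter 3 the change was 0.35 (limma adjusted p = 0.266), and without litter 2 it was 0.71 and passed (limma adjusted p = 0.0168). Ang2, a paralog, was 6.42, 6.52 and 6.52 in mutants and 6.22, 6.35 and 6.30 in controls, which did not overlap but did not pass (0.20 ± 0.08, limma adjusted p = 0.289). Of 15 measured angiogenins and pancreatic-type ribonucleases 0 passed in either direction in limma (2 higher and 0 lower at an unadjusted p under 0.05), with a median change of 0.05, and 12 of the 15 were among the dimmest 30% of genes. Angiogenin itself had no row of its own. A row annotated jointly to Rnase4 and Ang, which was left out of the test because it cannot be assigned to either gene, was 10.17, 9.54 and 10.28 in mutants and 9.42, 9.34 and 9.31 in controls. These values were higher in each mutant than in its littermate and did not overlap between the groups. Genes of this family resemble each other, so a row may also hold signal of a paralog. The genes most like Ang4 over the 6 arrays were Csrnp1, Nlrp6 and Serinc2, with correlations of 0.983, 0.977 and 0.974. Nlrp6, an innate immune sensor of intestinal epithelium, stood at 0.30 ± 0.12 and did not pass (limma adjusted p = 0.269).

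**Figure D2:**
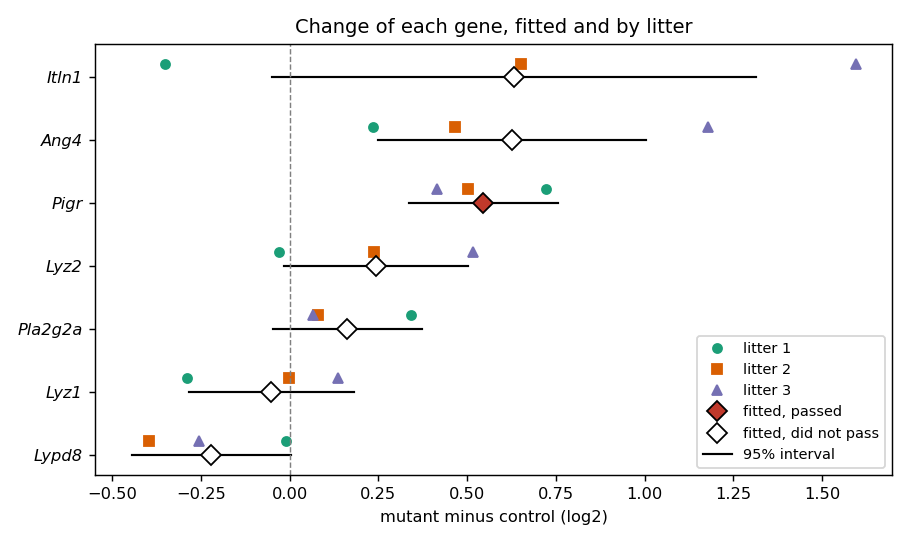
Fitted change of each gene (horizontal axis, mutant minus control, log2) with its 95% interval, not adjusted for the number of genes, and the change in each litter drawn just above it. The interval of Pigr runs from 0.34 to 0.76, and those of Itln1 and Ang4 are the widest of the 7.

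Itln1, the sugar-binding lectin, had the widest spread of the group and no consistent direction. It measured 7.28, 6.75 and 7.23 in mutants 1 to 3, against 7.63, 6.10 and 5.63 in controls 1 to 3. The controls spanned 2.00 and the mutants 0.53, and control 1 was the highest of all 6 arrays. Itln1 was therefore lower in the mutant of litter 1 (-0.35) and higher in those of litters 2 (0.65) and 3 (1.60). The mean of 0.63 ± 0.29 was about as large as that of Ang4 or Pigr and did not pass (limma adjusted p = 0.378). Without litter 1 it was 1.12 and passed (limma adjusted p = 0.0437), and without litter 3 it was 0.15 (limma adjusted p = 0.933). In litters 2 and 3 the mutants had the higher Xist level, so without litter 1 genotype and sex cannot be told apart. With the Xist level as a covariate the Itln1 change was 0.35 and did not pass (limma adjusted p = 0.331). The row carries further transcript accessions beside that of Itln1 in the reference table, so it may not measure a single intelectin gene. No other intelectin gene had a row of its own here. The genes most like Itln1 were the olfactory receptor genes Olfr530 and Olfr1245 and the neuropeptide gene Cartpt, with correlations of 0.968, 0.958 and 0.955, none of which passed in the comparison of genotypes.

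Lypd8, the flagella-binding protein of the colonic surface, had the most negative change of the group. It measured 13.20, 12.83 and 12.95 in mutants 1 to 3, against 13.21, 13.22 and 13.20 in controls 1 to 3. The controls agreed within 0.02, and the mutants spread over 0.37 below them. Each mutant lay below its own littermate, with differences of -0.01, -0.40 and -0.26 in litters 1, 2 and 3, so litter 1 showed hardly any. The mean change of -0.22 ± 0.10 did not pass (limma adjusted p = 0.341), and no alternative brought it past the threshold. Of 14 measured Lypd and Ly6 genes, 2 passed as higher and 0 as lower, beside 1.66% and 2.11% of all genes. At an unadjusted limma p under 0.05, 3 were higher and 0 lower, and the median change was -0.01. Plaur, the receptor of urokinase, was 8.02, 8.27 and 8.56 in mutants and 7.47, 7.47 and 7.51 in controls (0.80 ± 0.11, limma adjusted p = 0.00866). Ly6d was 9.47, 8.50 and 9.51 in mutants and 8.01, 8.01 and 8.28 in controls (1.06 ± 0.17, limma adjusted p = 0.0159, and 0.0514 without litter 1). Plaur is also expressed by neutrophils, whose marker genes were higher in mutants as given above, and their part in its change was not tested.

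The lysozyme genes differed more between litters than between genotypes. Lyz1 measured 7.11, 7.23 and 7.84 in mutants 1 to 3, against 7.40, 7.23 and 7.71 in controls 1 to 3. Litter 3 was the highest in both groups, and the controls lay within the range of the mutants. The change of -0.05 ± 0.10 did not pass (limma adjusted p = 0.896), its 95% interval ran from -0.29 to 0.18, and its sign turned when litter 1 was left out (0.07).

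Lyz2, the myeloid lysozyme, measured 9.11, 9.18 and 10.14 in mutants 1 to 3, against 9.14, 8.94 and 9.62 in controls 1 to 3. Litter 3 again held the highest value of each group. The change was 0.24 ± 0.11 and did not pass (limma adjusted p = 0.374), with differences of -0.03, 0.24 and 0.52 in litters 1, 2 and 3. Macrophage and monocyte markers summed to 12.03 to 12.20 in mutants and 12.18 to 12.32 in controls. Of these markers 3 of 19 passed as higher and 2 as lower, beside 1.66% and 2.11% of all genes. The genes most like Lyz2 over the 6 arrays were Igsf6, Zfp600 and Itgb2, with correlations of 0.980, 0.974 and 0.953. Itgb2 is the leukocyte integrin beta chain, and it stood at 0.11 ± 0.08 between genotypes (limma adjusted p = 0.657). Those most like Lyz1 were Coro1a, an actin regulator of blood cells, Ch25h and Ifi206, with correlations of 0.960, 0.939 and 0.935. Lyz1 and Lyz2 are near-identical paralogs, so each row may hold signal of the other gene and their likeness need not come from separate measurements. Of 9 measured lysozyme family genes 0 passed in either direction in limma, also at an unadjusted p under 0.05 (0 higher and 0 lower), with a median of 0.00.

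Pla2g2a, the secreted phospholipase A2 of Paneth cells, was among the dimmest 30% of genes. It measured 6.14, 5.83 and 6.07 in mutants 1 to 3, against 5.80, 5.75 and 6.01 in controls 1 to 3. The groups overlapped, each mutant exceeded its littermate, and the change of 0.16 ± 0.09 did not pass (limma adjusted p = 0.484). RefSeq lists Pla2g2a as a transcribed pseudogene in the C57BL/6J reference, since that strain carries a disrupted copy, and the strain of these mice is not given in the sources used here.

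Other members of the family passed where Pla2g2a did not. Of 12 secreted phospholipase A2 and receptor genes 2 passed as higher and 0 as lower, beside 1.66% and 2.11% of all genes. At an unadjusted limma p under 0.05, 3 were higher and 1 lower, and the median change was 0.08. Pla2g2f was 8.996, 8.48 and 8.44 in mutants and 7.80, 7.87 and 7.85 in controls, and changed by 0.80 ± 0.13 (limma adjusted p = 0.0171). Pla2g1b, the pancreatic-type enzyme, was 7.41, 7.71 and 7.73 in mutants and 7.15, 6.97 and 7.08 in controls. It changed by 0.55 ± 0.11 (limma adjusted p = 0.0352), but with adjusted p = 0.0703 without litter 2 and 0.103 without litter 3. Pancreas markers summed to 10.18 to 10.75 in mutants and 10.22 to 10.58 in controls, and 1 of 9 passed, as higher. The difference between the changes of these genes and that of Pla2g2a was not tested.

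The split of each gene's spread sets the group in order. Of the sum of squares of Pigr over the 6 arrays, 87.5% lay between genotypes and 7.62% between litters. For Ang4 and Lypd8 the genotype share was 59.6 and 50.8%. It was 29.8% for Pla2g2a and 20.1% for Itln1, whose litter shares were 52.0 and 47.9%. For the lysozymes it was 8.78% (Lyz2) and 0.94% (Lyz1), with 83.7 and 88.1% between litters. The median over all genes tested was 17.5% between genotypes and 34.7% between litters. These shares describe 6 arrays and carry no test.

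**Figure D3:**
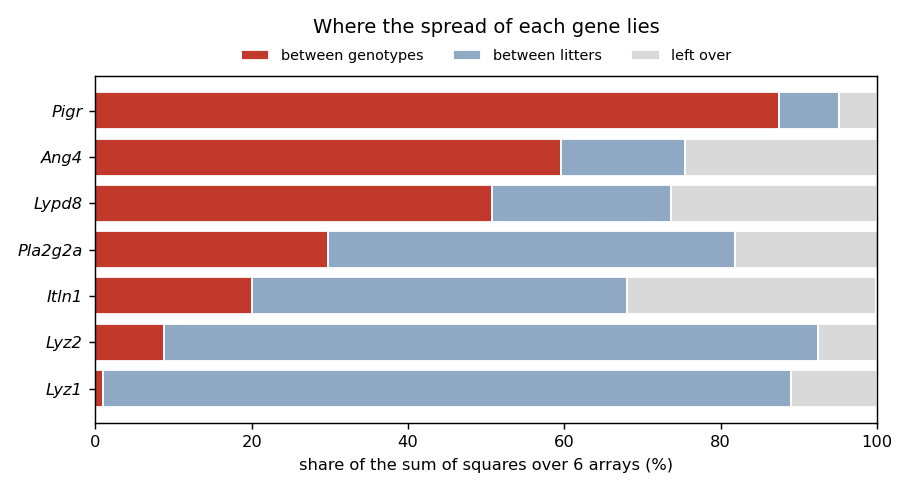
Share of each gene's sum of squares over the 6 arrays (horizontal axis, %) that lay between genotypes, between litters, or in neither. Pigr is the gene with most of its spread between genotypes (87.5%), and Lyz1 the gene with most between litters (88.1%).

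Paneth cell genes were measured only in part. Of 21 listed markers 6 had a row with a single symbol, of which 2 passed as higher, Mmp7, the protease that activates defensins (1.32 ± 0.19, limma adjusted p = 0.0101), and Nupr1, a stress response gene of many tissues (1.04 ± 0.08, limma adjusted p = 0.00112). The 6 summed to 11.53 to 11.69 in mutants and 10.83 to 11.00 in controls, but this sum is not a measure of Paneth cells, since much of it is Nupr1 (means of 10.75 in mutants and 9.71 in controls) and Guca2b (9.61 in mutants and 9.41 in controls), which other cells also express. After seeing these values, the sum was taken again without them, and was 8.71 to 9.52 in mutants and 8.47 to 8.71 in controls. Without Mmp7 as well, over Lyz1, Pla2g2a and Defa24, it was 7.76 to 8.28 in mutants and 7.74 to 8.15 in controls. The only defensin of the list with its own row, Defa24, stood at 3.58, 3.40 and 3.83 in mutants and 3.50, 3.28 and 3.50 in controls, among the dimmest 30% of genes (0.18 ± 0.09, limma adjusted p = 0.417). Goblet cell markers, whose cells also make Ang4 and Itln1, summed to 15.38 to 15.52 in mutants and 15.35 to 15.41 in controls, with 4 of 13 higher and 2 lower. Small intestinal epithelium markers summed to 13.09 to 13.52 in mutants and 12.90 to 13.18 in controls, and 2 of 23 passed as higher and 1 as lower. Beside these counts, 1.66% of all genes passed as higher and 2.11% as lower. The part of these cell types in the values of Ang4, Itln1 and Lyz1 was not tested.

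Genes listed as other antimicrobial effectors of the gut changed in both directions. Of 42 measured, 16 passed as higher and 2 as lower, beside 1.66% and 2.11% of all genes, with a median of 0.15. The list was drawn widely and with earlier results of these data known, so its count beside all genes is only a description. It also holds chemokine genes and Clps, which is among the pancreas markers too and passed as higher. Those with the smallest p were Reg3b (2.64 ± 0.16), Reg4 (1.45 ± 0.12), Slpi (1.07 ± 0.10) and Reg3g (2.51 ± 0.24) among the rises and Saa1 (-2.34 ± 0.09) and Zg16 (-0.64 ± 0.12) among the falls. Slpi, a secreted protease inhibitor of mucosal surfaces, was 8.26, 7.50 and 8.09 in mutants and 7.09, 6.66 and 6.87 in controls (limma adjusted p = 0.00202). Reg3g, a bactericidal lectin, was 9.88, 11.93 and 10.79 in mutants and 6.75, 9.17 and 9.14 in controls (limma adjusted p = 0.00233, and 0.0839 without the litter block). Zg16, a mucus lectin that binds gram-positive bacteria, was 10.43, 10.76 and 11.26 in mutants and 11.34, 11.49 and 11.54 in controls (limma adjusted p = 0.0315, and 0.102 without the litter block). Zg16 also missed the threshold without litter 1 (adjusted p = 0.0911). The list holds neutrophil granule genes such as S100a8, S100a9 and Ltf. These are themselves among the neutrophil markers given above, and their part in the count was not tested.

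Genes on the signalling side that governs many epithelial defence genes changed in a few cases. Of 17 measured genes around IL-22 and IL-17 signalling 3 passed as higher and 0 as lower, beside 1.66% and 2.11% of all genes. At an unadjusted limma p under 0.05, 4 were higher and 2 lower, and the median change was 0.12. The 3 that passed were Il1b, Socs3 and Nfkbiz. Il22 had no row of its own, and Il17a, Il17f and the listed IL-22 and IL-17 receptor genes did not pass. Il1b, an inflammatory cytokine, changed by 1.81 ± 0.12 (limma adjusted p = 0.000664). Neutrophils and monocytes also make Il1b. Of 16 neutrophil markers, 11 of them among the dimmest 30% of genes, 9 passed as higher. These markers summed to 11.76 to 11.97 in mutants and 10.28 to 10.64 in controls. The part of such cells in the Il1b change was not tested. Socs3, a feedback inhibitor that STAT3 induces, was 8.48, 8.55 and 8.53 in mutants and 8.06, 8.09 and 7.87 in controls (0.51 ± 0.09, limma adjusted p = 0.0205, and 0.102 without litter 3). Socs3 had 2 rows, and their average changed by 0.31 and did not pass (limma adjusted p = 0.103). Nfkbiz, a nuclear regulator of NF-kB target genes, was 8.22, 8.33 and 8.38 in mutants and 7.88, 7.89 and 7.89 in controls (0.43 ± 0.08, limma adjusted p = 0.0308). The Nfkbiz call was lost without litter 2 (adjusted p = 0.0838) and without litter 3 (adjusted p = 0.162).

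**Figure D4:**
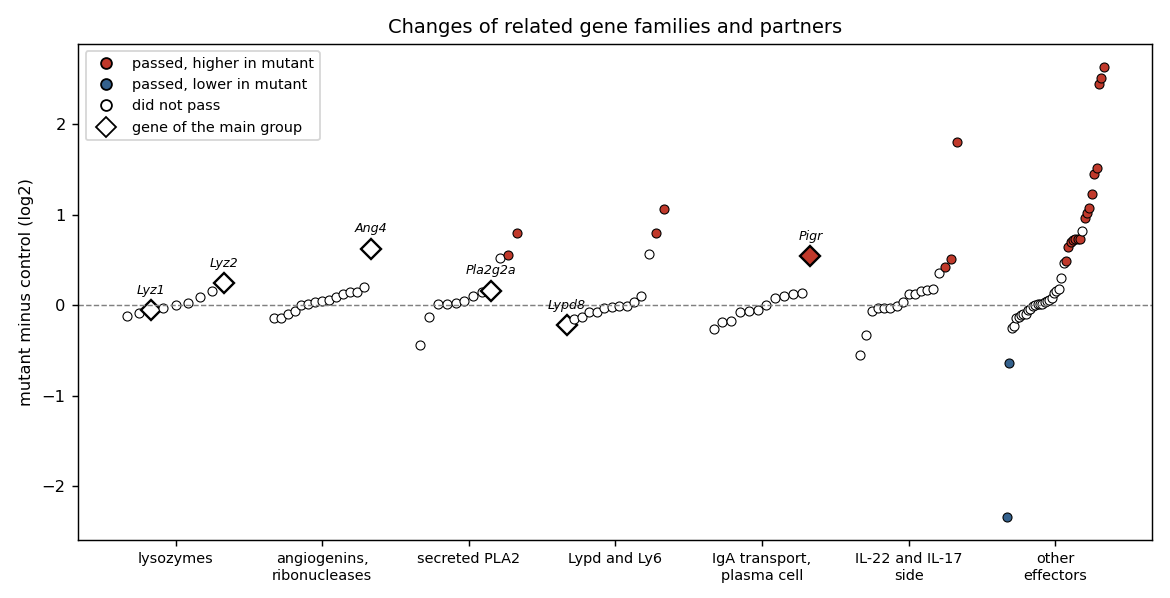
Change of each measured gene (vertical axis, mutant minus control, log2) in 7 lists of related families and partners, sorted within each list, with filled points for genes that passed. Diamonds mark the defence genes described above, of which Pigr at 0.55 is filled, and the other effectors range from -2.34 for Saa1 to 2.64 for Reg3b.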

How the data were processed

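Whole colon RNA of 3 mutant and 3 control mice had been hybridised to 1 array each. The authors deposited log2 expression values made with RMA, per the submitters' processing notes. Its version is not given in the sources used here, nor is the build behind the probes. The table held 35557 rows and 0 unused columns of per-sample values, and array medians lay between 7.10 and 7.14. Through the platform annotation of 2016, 21789 rows had 1 symbol, 1621 had several and 12147 were unnamed here. For the 999 genes with several rows the row with the highest mean was kept, which left 19938 genes.

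The comparison used the functions lmFit and eBayes of limma 3.58.1 under R 4.3.3, two-sided and with Benjamini-Hochberg adjustment, and held the litter as a fixed block. The fit has 2 residual and 5.85 prior degrees of freedom. The pairing comes from the series text, and the deviations from group means of mutant and control of a litter correlated by 0.0128, 0.00516 and 0.0613 over genes. On simulated data for this comparison with 19938 genes, over 10 draws, the fit recovered 41.2% of changes of 0.5, 98.4% of changes of 1 and 100% of changes of 2 (log2), and 6.34% of 1703 calls were unchanged genes. Each draw had 200 changed genes, independent normal noise with variances from the fitted prior, and no litter effect. These rates hold for that setting and may differ for the real arrays. The 7 genes and all lists were chosen with earlier results of these data known. Genes named beyond the 7 are Ihh, Ptch1 and Hhip, those that passed in a list of the 7 genes' families, partners or other effectors (all if 5 or fewer, otherwise the 4 with the smallest p in each direction), the 3 most correlated with each gene that spanned 0.5 or more, and paralogs. Xist, Jchain, Xbp1, Sdc1, Defa24, Mmp7, Nupr1, Guca2b and the neutrophil granule genes were named after their values were seen. Promoter windows were aligned with Biopython 1.88. With no counts behind array values, the number of arrays limits the precision.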

Additional observations from a re-analysis of the deposited data

How the results depend on the processing

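Alternatives were no litter block or a random one, a trended robust eBayes, array weights, leaving out the dimmest 30% of genes, median centring or quantile normalization, averaging a gene's rows, fitting all rows of the table, a paired test without shared variance, an Xist covariate, and leaving out each litter. Of the 7 genes, 1 passed in the main fit, and 0 passed as lower in it or under any of these alternatives. With array weights 2 passed, with Ang4 added (0.76, adjusted p = 0.0237), and 1 or 2 passed with a litter left out. Without litter 1 the remaining mutants had higher Xist than the remaining controls, so that fit cannot tell genotype from sex. With all rows of the table and in the paired test without shared variance, 0 passed. Over all genes, array weights gave 1246 calls (512 higher, 734 lower) and the Xist covariate 1245 (565 higher, 680 lower), against 751. All rows of the table gave 2 calls (1 higher, 1 lower), with 3.01 prior degrees of freedom in place of 5.85. The paired test without shared variance gave 0 calls in either direction, although 1969 genes had an unadjusted p under 0.05. Without the litter block 638 genes passed, and with the pairing dropped in this way Pigr kept its call (adjusted p = 0.0186) and no other of the 7 gained or lost one. Lyz1 changed sign with array weights (0.0169) and without litter 1 (0.067, from a lowest value of -0.15 without litter 3). Pla2g2a had no value without the dimmest 30% of genes. The cause of these shifts was not tested. The same alternatives for genes outside the 7 were added after seeing the data.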
